A study of Homo sapiens with 6 samples.

Results

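Aminoacyl-tRNA synthetases, the enzymes that load each amino acid onto its tRNA, were followed in PLC/PRF/5 cells given extra ARD1. The 35 genes were taken from a list of symbols by a rule that uses no measured value, although the list was drawn up with earlier results of these data known. They comprise 19 cytosolic and 16 mitochondrial enzymes of the 25071 genes in the count table. All 35 were found in the table and 34 passed the filter on low counts, the exception being the mitochondrial valyl enzyme VARS2. RNA was sequenced from 6 libraries of PLC/PRF/5, an established human hepatoma line. The control group is 3 libraries of cells transfected with a control vector, and the ARD1 group is 3 libraries of cells transfected with a plasmid that overexpresses ARD1, all taken at 48 hours. ARD1 is the older name of NAA10, which carries the catalytic activity of an N-terminal acetyltransferase, and the study's title ties it to glutathione synthesis and to escape from ferroptosis. Whether the 3 libraries of a group are separate cultures is not in the labels. The p-values therefore reflect only how these libraries vary, which may be technical variation.

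Cytosolic and mitochondrial translation use separate sets of synthetases, nearly all of them encoded by separate nuclear genes. The cytosolic enzymes work beside ribosomes in the cytoplasm, several of them held in a multisynthetase complex, while the mitochondrial ones are imported to translate the few proteins encoded in mitochondrial DNA. GARS1 and KARS1 each serve both compartments from a single gene. When tRNAs lack their amino acid, the kinase GCN2 (gene EIF2AK4) is activated and the transcription factor ATF4 is made. Many cytosolic synthetase genes are known ATF4 targets, whereas mitochondrial ones mostly are not.

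The libraries held 21857327 to 25011357 counts. The transfected gene NAA10 was at 35.5, 32.1 and 36.2 CPM (read counts scaled to TMM-normalised library size) in the control libraries and at 355, 399.8 and 294 CPM in the ARD1 libraries. Control replicate 1 stood apart, since its counts differed from those of the other controls with chi-square statistics of 15.9 and 18.5 per degree of freedom, where the other pairs within a group gave 2.44 to 4.09. Hepatocyte-lineage markers such as ALB, TF, HNF4A, KRT8 and KRT18 were present. Their list of 12 summed to 3281 to 4087 CPM in controls and to 1916 to 1991 CPM with ARD1, with ALB 8.67-fold, TF 9.30-fold and KRT18 2.13-fold lower, while 3 of 9 tested were higher, among them HNF4A. TTR, APOA1 and GPC3 were at most 0.359 CPM in every library. Endothelial markers summed to 69.9 to 82.6 CPM in controls and 90.1 to 103 CPM with ARD1, with CDH5 down from 30.5 to 35.3 CPM to at most 0.161 CPM and KDR, PECAM1 and VWF higher. VWF was low in both groups, at most 0.0897 CPM in controls and 1.05 to 1.63 CPM with ARD1. TEK and TIE1 were at most 0.807 CPM in every library and were not tested. Summed fibroblast markers went from 77.9 to 98.5 down to 17.6 to 20.2 CPM, and immune markers from 16.8 to 19 down to 8.74 to 9.48 CPM. The markers in these sums did not move together. Of 5 tested fibroblast markers 2 fell (LUM and COL3A1), 1 rose (COL1A1) and 2 did not pass the edgeR test (DCN and PDGFRB). Of 3 tested immune markers 2 fell (ITGAM and PTPRC) and CD14 did not pass. Of the defining markers, PTPRC lay between 1.14 and 2.38 CPM in controls and at or below 0.0836 CPM with ARD1, and THY1 was not listed in the table. The part of these markers in the synthetase results was not tested. Of the 35 members 11 have pseudogenes named after them in GENCODE 29, WARS1, WARS2, AARS1 and GARS1 among them, and their reads could be split with those copies. In bulk RNA, fewer cells with a transcript and less of it per cell cannot be told apart.

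With TMM scaling the ARD1 libraries held less mRNA of most mitochondrial synthetases, while the cytosolic enzymes were split. With library totals alone most cytosolic enzymes were higher and the mitochondrial ones were split. Of 15 tested mitochondrial genes 11 fell and 2 rose, with a median log2 fold change of -0.38. Of 19 cytosolic genes 8 rose and 6 fell, with a median of 0.09, against 0.03 over all genes tested. Fold changes are ARD1 over control libraries, from edgeR's quasi-likelihood test and a gene passed where its Benjamini-Hochberg adjusted p was under 0.05. Over all 15816 genes tested 64.6% passed, 32.4% higher and 32.2% lower, so the share of cytosolic enzymes that passed (73.7%) was not far from the background. The mitochondrial enzymes passed in 86.7% of cases. Changes of at least 1 on the log2 scale were seen in 2 cytosolic and 3 mitochondrial enzymes, and in 21.5% of all genes. The libraries of the groups did not overlap for 16 cytosolic and 13 mitochondrial genes, against 69.6% of all genes.

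**Figure D1:**
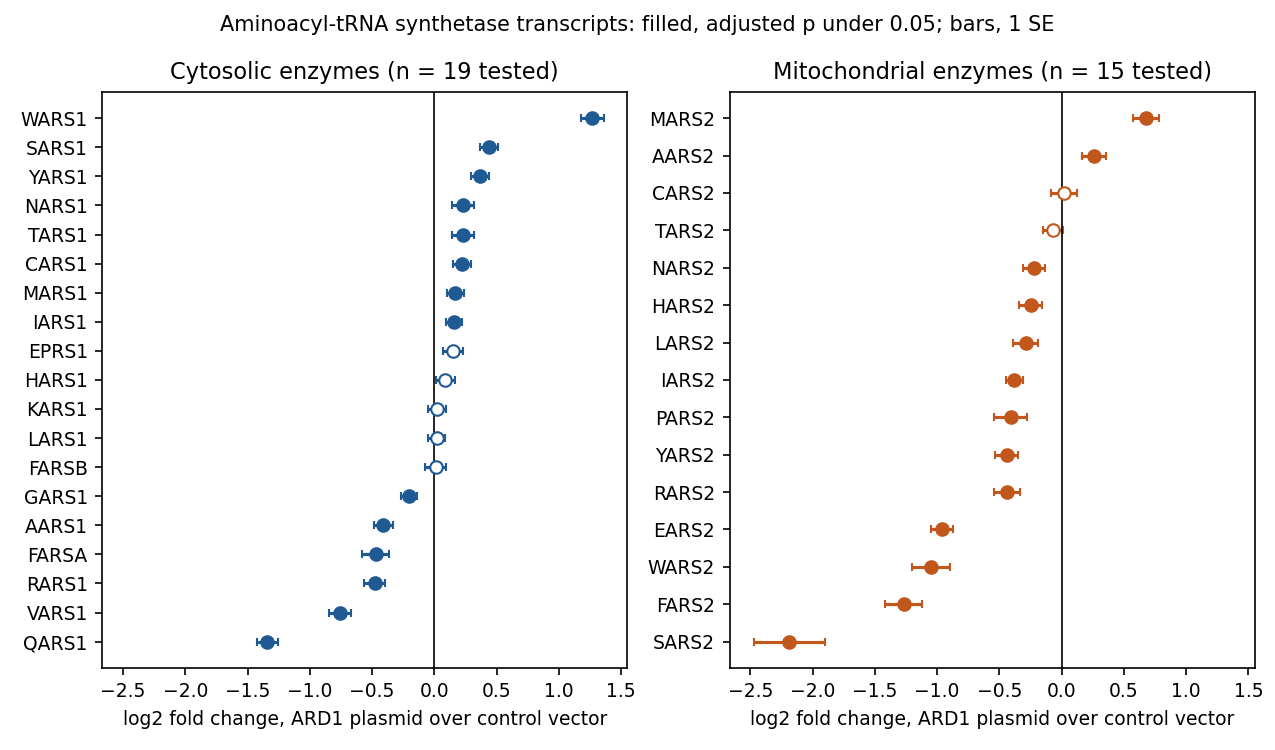
Log2 fold change (x axis, ARD1 plasmid over control vector, 3 libraries each) of each tested synthetase (y axis), with bars of 1 standard error and filled points for adjusted p under 0.05. Cytosolic enzymes spread from -1.34 (QARS1) to 1.27 (WARS1), and 11 of 15 mitochondrial ones lie to the left of 0 with filled points.

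The directions of the smaller changes rested on how the libraries were scaled. With library totals and no scaling factor the median log2 fold change over all genes was 0.30 in place of 0.03, and 13 cytosolic enzymes were higher and 2 lower, with 48.0% of all genes higher and 22.1% lower. The mitochondrial enzymes then had 4 higher and 4 lower, with a median of -0.11. With trends in GC content and transcript length removed, 5 cytosolic enzymes were higher and 6 lower, with a median of -0.01, and 2 mitochondrial ones were higher and 10 lower. The gap between the medians of the compartments was 0.47 with TMM and with library totals, since scaling moves both alike, and 0.32 with the GC and length trends removed. Leaving out 1 library brought the 8 cytosolic rises to 5 (without control replicate 2 or 3), 4 (without ARD1 replicate 1) or 3 (without ARD1 replicate 2 or 3), and the 11 mitochondrial falls to 7 without ARD1 replicate 3. The 2 mitochondrial rises became 1 without any library other than control replicate 1, and the 14 cytosolic calls of either direction fell to 9, 9 and 8 without ARD1 replicates 1, 2 and 3.

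A group of 10 members passed in the same direction under all 17 alternative fits, as did 41.7% of all genes tested, counting a gene left out of a fit as not passing. The 10 were the cytosolic WARS1, SARS1 and YARS1 (higher) and QARS1 and VARS1 (lower), and the mitochondrial MARS2 (higher) and EARS2, FARS2, WARS2 and SARS2 (lower).

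**Figure D2:**
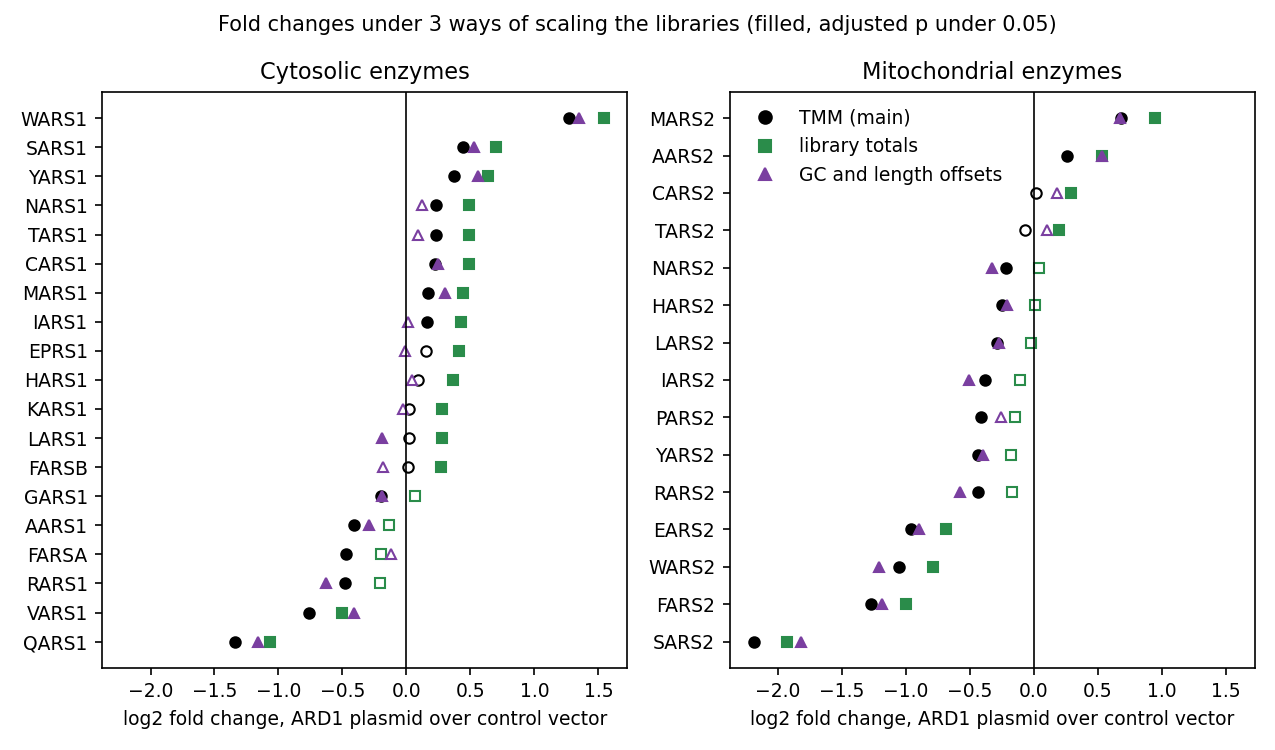
Log2 fold change (x axis) of each tested synthetase (y axis) with TMM scaling, with library totals alone, and with GC and length trends removed, filled where adjusted p was under 0.05. Library totals place every point further right than TMM scaling does. The points of WARS1, SARS1, YARS1, MARS2, QARS1, VARS1, EARS2, FARS2, WARS2 and SARS2 are filled and keep their side of 0 in all 3.

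Among cytosolic enzymes that rose, WARS1, the tryptophanyl-tRNA synthetase, moved furthest. WARS1 (ENSG00000140105, chromosome 14 from 100333788 to 100376805 on the minus strand, GRCh38, GENCODE 29) was at 63.2, 51.7 and 51.1 CPM in the control libraries and at 142, 129 and 129 CPM in the ARD1 libraries. Every ARD1 library was well above every control, a 2.41-fold rise (log2 fold change 1.27, SE 0.0896, adjusted p = 1.39e-08 in edgeR's quasi-likelihood test). WARS1 is also known as an interferon-inducible gene. Exons of AL157871.4 and WDR25 on the other strand cover 10.6% of its exon bases.

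SARS1, the seryl-tRNA synthetase (ENSG00000031698, chromosome 1 from 109213918 to 109238169, plus strand), was at 119, 108 and 107 CPM in controls and at 155, 151 and 146 CPM with ARD1. The groups did not overlap, and the rise was 1.35-fold (log2 fold change 0.44, SE 0.0707, edgeR adjusted p = 7.18e-05). YARS1, the tyrosyl-tRNA synthetase (ENSG00000134684, chromosome 1 from 32775237 to 32818153, minus strand), went from 202, 182 and 173 CPM to 239.6, 243 and 239.6 CPM. Its ARD1 libraries lay within 4 CPM of each other and above all controls (1.30-fold, log2 fold change 0.37, SE 0.0716, edgeR adjusted p = 3.34e-04).

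A further 5 cytosolic enzymes rose by 1.12- to 1.17-fold, and these calls depended on single libraries and settings. TARS1 (threonyl, log2 fold change 0.23), NARS1 (asparaginyl, 0.23), CARS1 (cysteinyl, 0.22), MARS1 (methionyl, 0.17) and IARS1 (isoleucyl, 0.16) each had SEs of 0.0647 to 0.0887. None of the 5 groups of libraries overlapped: NARS1, as an example, was at 157, 199 and 203 CPM in controls and at 218, 215 and 221 CPM with ARD1. Control replicate 1 was the lowest of the controls for NARS1 and for TARS1, where it held 142 CPM against 174 and 182 CPM. Calls ended for NARS1 and TARS1 without any 1 of the ARD1 replicates (0.21 to 0.25) and for CARS1 without control replicate 2 or 3 or ARD1 replicate 2 or 3 (0.17 to 0.22). For MARS1 (0.12 to 0.18) and IARS1 (0.10 to 0.17) they ended without any library other than control replicate 1, and also with RLE scaling, with DESeq2 and without the filter (0.15 to 0.16). With GC and length trends removed CARS1 (0.25) and MARS1 (0.30) passed, while NARS1 (0.12), TARS1 (0.09) and IARS1 (0.01) did not. Of MARS1 exon bases 12.4% lie opposite exons of ARHGAP9 and DDIT3. DDIT3 rose 5.62-fold, and the strand setting of the counting is not given in the sources used here, so reads of MARS1 and DDIT3 in the shared bases cannot be told apart.

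QARS1, the glutaminyl-tRNA synthetase, had the largest fall of the cytosolic enzymes. QARS1 (ENSG00000172053, chromosome 3 from 49095932 to 49105135, minus strand) was at 175, 149.6 and 144 CPM in the controls and at 60.8, 62.2 and 62.1 CPM in the ARD1 libraries. The ARD1 values lay close together and far below the lowest control, a 2.53-fold fall (log2 fold change -1.34, SE 0.0815, edgeR adjusted p = 2.70e-09). VARS1, the valyl enzyme (ENSG00000204394, chromosome 6 from 31777518 to 31795953, minus strand), went from 164, 135 and 129 CPM to 85.7, 85.9 and 80.6 CPM. Its groups were also apart, with a 1.70-fold fall (log2 fold change -0.76, SE 0.0890, edgeR adjusted p = 2.92e-06).

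RARS1, the arginyl enzyme, was at 54.7, 63.0 and 66.3 CPM in controls and at 40.9, 45.9 and 45.3 CPM with ARD1 (log2 fold change -0.48, SE 0.0879, edgeR adjusted p = 2.38e-04). FARSA, the catalytic alpha chain of phenylalanyl-tRNA synthetase, was at 85.1, 62.4 and 64.7 CPM and then at 54.2, 53.0 and 46.2 CPM (-0.47, SE 0.110, edgeR adjusted p = 0.00166), with control replicate 1 the highest library. AARS1, the alanyl enzyme, was at 492, 433 and 404 CPM and then at 332, 332 and 337 CPM (-0.41, SE 0.0764, edgeR adjusted p = 2.67e-04). All 3 fell with TMM scaling, none of their groups overlapped, and none passed with library totals alone (-0.21, -0.20 and -0.14). FARSA also did not pass with GC and length trends removed (-0.12). GARS1, the glycyl enzyme of both compartments, was at 238, 238 and 242 CPM in controls and at 212, 210.3 and 204 CPM with ARD1 (-0.20, SE 0.0636, edgeR adjusted p = 0.0141). The GARS1 call ended without ARD1 replicate 1 (-0.20) or 3 (-0.18), and its direction turned with library totals (0.07).

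The remaining 5 cytosolic enzymes did not pass the test. FARSB, the beta chain that pairs with FARSA, was at 53.8, 50.7 and 48.5 CPM in controls and at 53.3, 54.0 and 46.5 CPM with ARD1. KARS1, the lysyl enzyme of both compartments, was at 109, 99.2 and 101 CPM and then at 102, 111 and 100.1 CPM. LARS1, the leucyl enzyme, was at 148, 162 and 159 CPM and then at 159.5, 158 and 158 CPM. For these 3 the groups overlapped, with log2 fold changes of 0.01 (SE 0.0834), 0.02 (SE 0.0737) and 0.02 (SE 0.0671). HARS1 (histidyl, 0.09) and EPRS1, which carries both the glutamyl and the prolyl activity in 1 chain (0.15), had groups that did not overlap and adjusted p-values of 0.296 and 0.10 in edgeR's quasi-likelihood test. With library totals alone these 5 all passed as higher (0.27 to 0.41). Removing the GC and length trends made LARS1 pass as lower (-0.19).

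**Figure D3:**
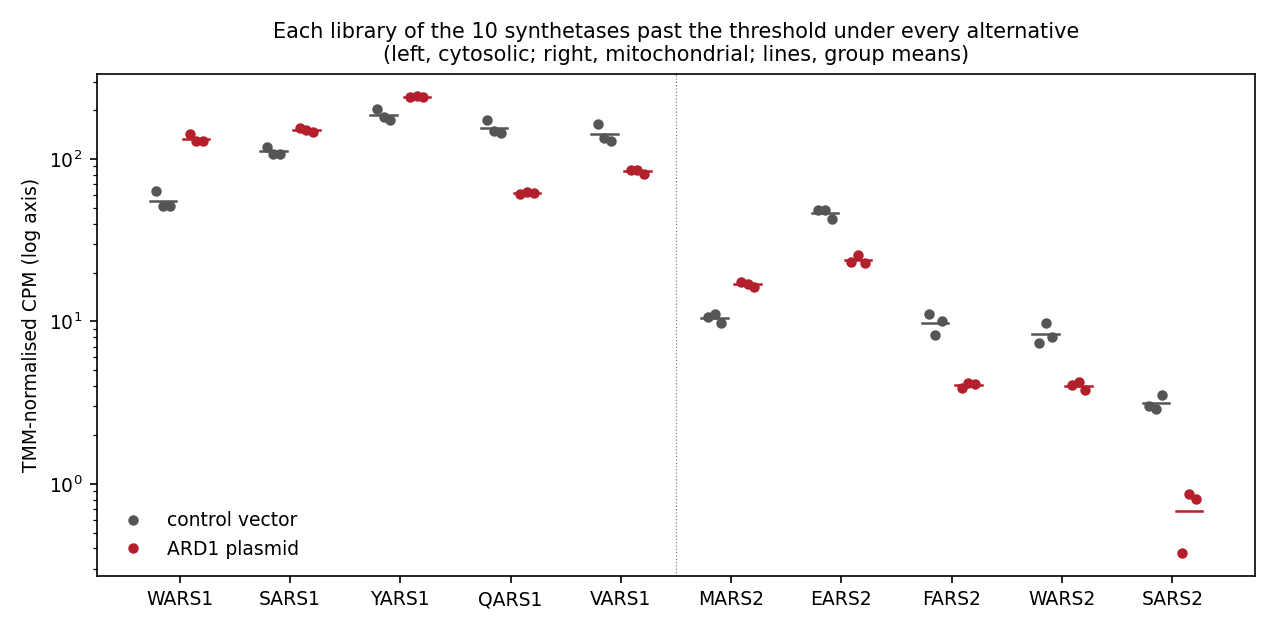
TMM-normalised CPM (y axis, log scale) in each library of the 10 synthetases that passed under all 17 alternatives (x axis), with lines at the group means of 3 libraries. In each of the 10 the control and ARD1 points are apart, from WARS1 at 51.1 to 63.2 against 129 to 142 CPM to SARS2 at 2.90 to 3.54 against 0.376 to 0.861 CPM.

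Among mitochondrial enzymes the seryl enzyme SARS2 had the largest fall, at low counts. SARS2 (ENSG00000104835, chromosome 19 from 38915266 to 38930896, minus strand) was at 3.0, 2.90 and 3.54 CPM in controls and at 0.376, 0.861 and 0.805 CPM with ARD1, which for ARD1 replicate 1 was 9 counts. All ARD1 libraries were below all controls, a 4.56-fold fall (log2 fold change -2.19, SE 0.285, edgeR adjusted p = 8.94e-06). Of SARS2 exon bases 46.2% are shared with AC011455.2 on the same strand and 10.8% lie opposite MRPS12, so its counts are uncertain to that extent.

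FARS2, which loads phenylalanine in mitochondria (ENSG00000145982, chromosome 6 from 5261044 to 5829192, plus strand), was at 11.1, 8.21 and 10.1 CPM in controls and at 3.89, 4.2 and 4.10 CPM with ARD1. The ARD1 values were all below the lowest control, a 2.41-fold fall (log2 fold change -1.27, SE 0.147, edgeR adjusted p = 2.67e-06). WARS2, the mitochondrial tryptophanyl enzyme (ENSG00000116874, chromosome 1 from 119031216 to 119140671, minus strand), went from 7.32, 9.73 and 8.07 CPM to 4.06, 4.23 and 3.78 CPM. Its groups were apart as well, with a 2.08-fold fall (log2 fold change -1.05, SE 0.150, edgeR adjusted p = 2.16e-05). EARS2, the mitochondrial glutamyl enzyme (ENSG00000103356, chromosome 16 from 23522014 to 23557731, minus strand), went from 48.7, 48.2 and 42.6 CPM to 23.3, 25.6 and 22.9 CPM. This was a 1.94-fold fall between groups that did not overlap (log2 fold change -0.96, SE 0.0891, edgeR adjusted p = 2.82e-07).

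A set of 7 other mitochondrial enzymes fell by -0.22 to -0.44 on the log2 scale. These were RARS2 (arginyl, -0.44), YARS2 (tyrosyl, -0.44), PARS2 (prolyl, -0.41), IARS2 (isoleucyl, -0.38), LARS2 (leucyl, -0.29), HARS2 (histidyl, -0.25) and NARS2 (asparaginyl, -0.22), all with groups that did not overlap. IARS2, the most abundant per length of the mitochondrial set, was at 191, 205 and 212 CPM in controls and at 155, 155 and 158 CPM with ARD1. With library totals alone none of the 7 passed, at -0.18 to 0.04, and HARS2 (0.01) and NARS2 (0.04) turned direction. With GC and length trends removed all but PARS2 (-0.26) passed as lower. Leaving out 1 library ended the call for NARS2 without any library other than control replicate 1 (-0.27 to -0.18) and for HARS2 without any 1 ARD1 replicate (-0.27 to -0.23). Both also failed with upper-quartile scaling (-0.18 and -0.21). The call ended for LARS2 without ARD1 replicate 1 (-0.29) or 3 (-0.24) and for PARS2 without ARD1 replicate 3 (-0.33).

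MARS2, the mitochondrial methionyl enzyme, rose, where 11 others of its compartment fell. MARS2 (ENSG00000247626, chromosome 2 from 197705369 to 197708387, plus strand) was at 10.7, 11.1 and 9.82 CPM in controls and at 17.6, 16.9 and 16.2 CPM with ARD1. Every ARD1 library was above every control, a 1.60-fold rise (log2 fold change 0.68, SE 0.104, edgeR adjusted p = 4.18e-05). AARS2, the mitochondrial alanyl enzyme, rose by 0.26 (SE 0.0932), from 22.4, 20.3 and 19.2 CPM to 25.6, 24.5 and 24.2 CPM. The AARS2 call ended with DESeq2 (0.24) and without any library other than control replicate 1 (0.18 to 0.28). CARS2 (cysteinyl, 0.02, SE 0.107) and TARS2 (threonyl, -0.07, SE 0.0789) did not pass, and both passed as higher with library totals (0.29 and 0.20). VARS2 had between 0.0454 and 0.375 CPM and was not tested, and 22% of its exon bases are shared with GTF2H4.

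Within a library the balance of the compartments does not depend on the scaling factor given to that library. Summed over all members, cytosolic counts were 5.46, 5.42 and 5.33 times the mitochondrial ones in the control libraries and 6.80, 6.53 and 6.70 times in the ARD1 libraries. The summed cytosolic level was 3179 to 3348 CPM in controls and 3295 to 3313 CPM with ARD1. The summed mitochondrial level went from 597 to 614 CPM to 488 to 505 CPM. On this scale the groups overlapped for the cytosolic sum and not for the mitochondrial sum. As a share of all counts the reverse held, with cytosolic enzymes at 0.295% to 0.300% in controls and 0.360% to 0.363% with ARD1, and mitochondrial ones at 0.0540% to 0.0555% and 0.0534% to 0.0552%. Which of the sums moved thus depends on the scaling factors of the libraries, and the ratio between them does not. Offsets for GC content and length differ between genes and can move the balance. With them the gap between the compartment medians was 0.32 in place of 0.47. Summed per kilobase of exon, the ratio was 3.92 to 4.08 in controls and 4.67 to 4.88 with ARD1.

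The same comparison was made for 16 pairs of a cytosolic and a mitochondrial enzyme that load the same amino acid, as the log2 ratio of their counts within each library. EPRS1 was paired with both EARS2 and PARS2, and FARS2 with both FARSA and FARSB, so the pairs are not all separate comparisons. The ratio was higher in the ARD1 libraries in 13 pairs and lower in 3. In an exact two-sided permutation test 13 of the 16 pairs reached p = 0.10, the smallest that 3 against 3 libraries allow, which is 0.123 after Benjamini-Hochberg adjustment over the 16 pairs. This test therefore cannot pass a threshold of 0.05 with 3 libraries a group. These 13 pairs, 11 with a higher and 2 with a lower ratio, were those whose libraries did not overlap between the groups. Of single genes 69.6% did not overlap either, and the share for pairs of genes in general was not worked out. The count thus cannot be read as a result particular to synthetases.

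The pair for tryptophan shifted by 2.32 on the log2 scale, WARS1 having risen and WARS2 fallen. The WARS1 to WARS2 log2 ratio was 3.11, 2.41 and 2.66 in controls and 5.13, 4.93 and 5.09 with ARD1, a 5.01-fold change of the ratio. For serine the log2 ratio of SARS1 to SARS2 went from 5.31, 5.21 and 4.92 to 8.68, 7.45 and 7.51, with ARD1 replicate 1 highest, where SARS2 had 9 counts. The tyrosine pair YARS1 and YARS2 shifted by 0.82 and the FARSB to FARS2 ratio by 1.27. Both moved by more than the spread between libraries, whose SDs were 0.0853 to 0.210 in these pairs.

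Methionine and alanine went the other way. The MARS1 to MARS2 log2 ratio was 4.79, 4.6 and 4.78 in controls and 4.17, 4.21 and 4.26 with ARD1, and the AARS1 to AARS2 ratio 4.45, 4.41 and 4.39 and then 3.69, 3.76 and 3.80. In these pairs every ARD1 ratio was below every control ratio. The arginine pair moved least, with a RARS1 to RARS2 log2 ratio of 1.29 ± 0.102 in controls and 1.26 ± 0.0691 with ARD1 (SD, n = 3), both enzymes having fallen. The cysteine and threonine pairs overlapped between the groups, with differences of 0.20 and 0.30.

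**Figure D4:**
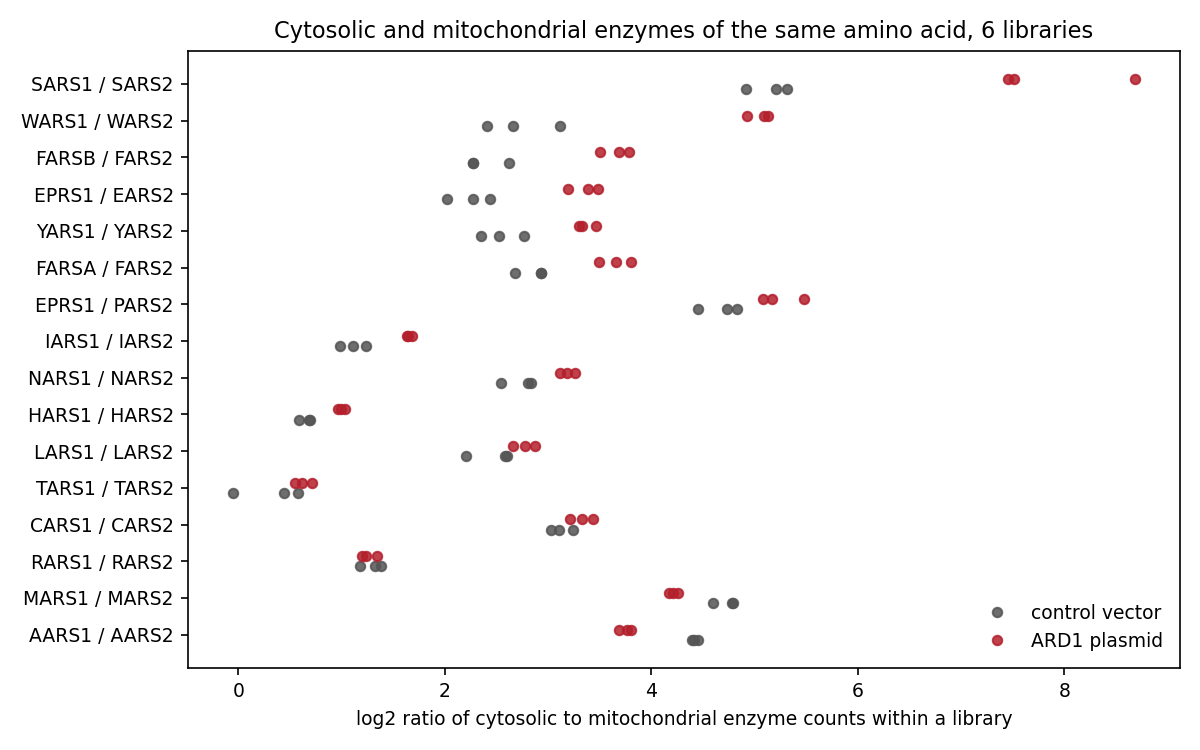
Log2 ratio of cytosolic to mitochondrial enzyme counts within each library (x axis) for 16 pairs (y axis), with control and ARD1 libraries in separate colours. The ARD1 points lie to the right of the control points with no overlap in 11 pairs, SARS1 / SARS2 and WARS1 / WARS2 furthest apart, and to the left in MARS1 / MARS2 and AARS1 / AARS2.

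The histidine enzymes are neighbours that start head to head on chromosome 5, HARS1 on the minus and HARS2 on the plus strand. Their RefSeq starts (GRCh38.p14) lie 85 bases apart, at 140691370 for HARS1 and 140691455 for HARS2. The 84 bases between them, chr5:140691371-140691454 on the plus strand, lie upstream of both RefSeq starts, though longer GENCODE models reach into them, and are shown as the stretch that both genes share.
HARS1 to HARS2: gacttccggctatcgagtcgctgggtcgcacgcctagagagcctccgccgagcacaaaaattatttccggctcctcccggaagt
HARS1 was at 49.2, 47.0 and 46.0 CPM in controls and at 50.8, 50.2 and 50.5 CPM with ARD1, and HARS2 at 32.7, 29.3 and 28.5 CPM and then at 26.0, 24.5 and 25.5 CPM. The log2 ratio of HARS1 to HARS2 was 0.59, 0.68 and 0.69 in controls and 0.96, 1.03 and 0.99 with ARD1. All 3 ARD1 ratios were thus above all control ratios (difference 0.34, exact permutation p = 0.10). Of HARS2 exon bases 11.7% lie opposite HARS1 exons.

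Levels were compared between genes as TMM-normalised CPM per kilobase of merged exons. In the control libraries AARS1 was highest at 98.4 ± 9.97 CPM per kilobase (SD, n = 3), followed by IARS1 at 59.1 ± 2.26 and GARS1 at 57.7 ± 0.537, and the order of IARS1 and GARS1 was within their spread. IARS2 at 48.7 ± 2.50 and TARS2 at 32.4 ± 3.22 were the only mitochondrial enzymes among the upper 10. At the lower end were FARS2 at 2.03 ± 0.306, CARS2 at 1.58 ± 0.168, SARS2 at 0.974 ± 0.108 and VARS2 at 0.0110 ± 0.00575 CPM per kilobase. In the ARD1 libraries QARS1 went from rank 8 to 19 of 35, at 13.1 ± 0.165 CPM per kilobase, and WARS1 from rank 23 to 13, at 21 ± 1.24. Dividing by the longest transcript in place of merged exons kept AARS1, IARS1 and GARS1 in the first 3 places and moved YARS1 from rank 15 to 7.

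The cytosolic enzymes were also divided by what is known of ATF4, a division chosen with earlier results of these data known. Of 12 known as ATF4 targets 8 rose and 2 fell (AARS1 and GARS1), with a median of 0.20, against 32.4% of all genes higher and 32.2% lower. Of the 7 others 0 rose and 4 fell (QARS1, VARS1, RARS1 and FARSA), with a median of -0.47. The count of rises among those 7 was also 0 at an unadjusted p under 0.05 in edgeR, and 0 with DESeq2 and with limma-voom. Summed levels of the ATF4-target group were 2580 to 2657 CPM in controls and 2833 to 2865 CPM with ARD1, and of the others 599 to 692 and then 431 to 462 CPM. The 8 rises of the ATF4-target group became 5 with GC and length trends removed, 5 without control replicate 2 or 3, 4 without ARD1 replicate 1 and 3 without ARD1 replicate 2 or 3. With library totals alone this group had 10 higher and 0 lower, and the others had 3 members higher (HARS1, KARS1 and FARSB) in place of 0. The difference between these subgroups was not tested.

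Promoters were searched for TGATGNAA, the core of the C/EBP-ATF response element that ATF4 binds, on both strands from 250 bases before to 50 bases after each RefSeq start (GRCh38.p14). A window was found for 30 of the 35 members, and some have more than 1 start. Among cytosolic members 7 of 16 genes held a match, in 7 of 21 windows (33.3%), and among mitochondrial members 1 of 14 genes did (5.56% of windows). Among the 35116 windows of all genes the share was 3.62%. The stricter TGATGCAA was in 28.6% of cytosolic windows, in 0 of 18 mitochondrial windows and in 0.866% of all windows. All 7 cytosolic genes with a match belong to the ATF4-target group. That list holds genes already known as targets, so the list and the motif are not separate lines of evidence. The search fixed every letter of a match except N, so likeness within the match is not a finding. The sites of these 7 genes are shown, most of them close to the start. Each is given on the strand of its gene with the match in capitals, which reads TTNCATCA, the reverse complement, where the element lies on the opposite strand.
AARS1 (chr16:70289675-70289704, minus strand): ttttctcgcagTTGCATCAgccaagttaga
CARS1 (chr11:3057407-3057436, minus strand): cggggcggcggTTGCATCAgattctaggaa
GARS1 (chr7:30594834-30594863, plus strand): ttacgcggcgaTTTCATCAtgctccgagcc
IARS1 (chr9:92293692-92293721, minus strand): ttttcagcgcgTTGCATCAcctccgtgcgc
MARS1 (chr12:57488053-57488082, plus strand): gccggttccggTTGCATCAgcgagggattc
NARS1 (chr18:57621804-57621833, minus strand): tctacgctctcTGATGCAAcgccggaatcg
TARS1 (chr5:33440956-33440985, plus strand): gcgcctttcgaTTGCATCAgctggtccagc
The match began 2, 4 and 13 bases before the start in CARS1, MARS1 and IARS1, 33 bases before it in GARS1 and 187 before it in AARS1, and 2 and 14 bases after it in TARS1 and NARS1. These 7 genes had log2 fold changes of -0.41 to 0.23, and 5 of them rose, where 32.4% of all genes were higher. AARS1 and GARS1 fell. None of the 5 rises passed under all 17 alternative fits. WARS1 and SARS1, which rose more, held no match in these windows, and no window was available for YARS1. A match is a description of the letters and not a measured site of binding.

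Among 10 genes of the amino acid response 7 rose and 1 fell, with a median log2 fold change of 0.77, where 32.4% of all genes were higher and 32.2% lower. ASNS, which makes asparagine, went from 3.86, 3.85 and 2.87 CPM to 14.4, 14 and 14 CPM (2.0, SE 0.138), although 44.6% of its exon bases are shared with AC079781.5. DDIT3, a stress transcription factor, rose by 2.49 (SE 0.0838) and SESN2, a leucine-sensing inhibitor of mTORC1, by 1.72 (SE 0.0950). The ATF4 partners CEBPB (0.86, SE 0.0824) and CEBPG (0.85, SE 0.0872) rose, as did EIF2AK4, the GCN2 kinase that senses uncharged tRNA, from 53.0, 50.8 and 52.0 CPM to 81.8, 85.8 and 82.3 CPM (0.68, SE 0.0708). IMPACT, an inhibitor of GCN2, rose by 0.40, though not with GC and length trends removed (0.10).

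ATF4 mRNA itself did not pass, at 391, 397 and 401 CPM in controls and 435, 444 and 416 CPM with ARD1 (log2 fold change 0.12, SE 0.0642, edgeR adjusted p = 0.109). It passed as higher with upper-quartile scaling (0.16), library totals (0.39), GC and length trends removed (0.36) and without control replicate 1 (0.10). TRIB3, an ATF4 target that feeds back on it, fell by 0.20 on the log2 scale, and its direction turned with library totals (0.06) and with GC and length trends removed (0.15). The TRIB3 call ended without ARD1 replicate 2 (-0.17) or 3 (-0.20) and with upper-quartile scaling (-0.16). CEBPG and ASNS hold TGATGNAA in their promoter windows, 42 and 68 bases before a start, among the 10 genes of this list.

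Glutaminyl-tRNA is made by different routes in the compartments, and parts of both were lower. In the cytosol QARS1 loads glutamine directly. In mitochondria EARS2 first loads glutamate, and the amidotransferase of GATB, GATC and QRSL1 converts it. GATB, the subunit that binds the tRNA, went from 31.8, 25 and 28.3 CPM to 10.5, 13.1 and 11.6 CPM, a 2.41-fold fall (log2 fold change -1.27, SE 0.116, edgeR adjusted p = 2.28e-07). All ARD1 libraries were below all controls. GATC rose from 49.8, 45.1 and 44.0 CPM to 69.8, 71.1 and 66.7 CPM (0.58, SE 0.0773), with 39.1% of its exon bases opposite SRSF9. The catalytic subunit QRSL1 rose by 0.32 (SE 0.106), a call that ended without control replicate 2 (0.27), without ARD1 replicate 1 (0.27) and with GC and length trends removed (0.10).

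Members of the multisynthetase complex changed in both directions. Of its 7 enzymes in the list, 2 rose (IARS1 and MARS1), 2 fell (QARS1 and RARS1) and EPRS1, KARS1 and LARS1 did not pass, with a median of 0.02. These shares were near those of all genes tested, 32.4% higher and 32.2% lower. The calls of IARS1 and MARS1 held in 6 and 9 of the 17 alternatives. The scaffold proteins AIMP1 (0.22, SE 0.107), AIMP2 (0.04, SE 0.0967) and EEF1E1 (0.24, SE 0.160) did not pass either. AIMP1 was at 40.0, 56.0 and 54.9 CPM in controls and at 57.3, 59.7 and 59.0 CPM with ARD1, with control replicate 1 well below the rest. AIMP1 passed as higher without control replicate 2 (0.28), with upper-quartile scaling (0.26) and with the replicate number as a block (0.24), and with library totals alone all 3 scaffolds passed as higher (0.30 to 0.50).

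**Figure D5:**
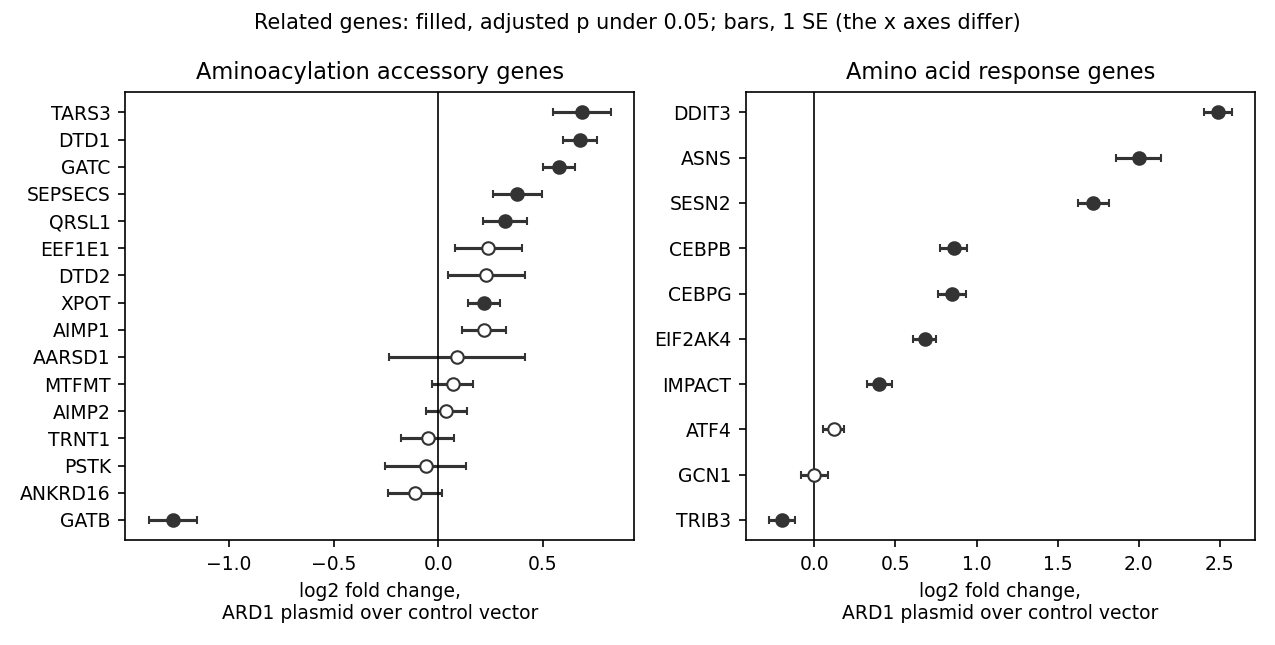
Log2 fold change (x axis, ARD1 plasmid over control vector, scales differ between panels) of 16 accessory genes of aminoacylation and 10 genes of the amino acid response (y axes), with bars of 1 standard error and filled points for adjusted p under 0.05. GATB at -1.27 stands to the left of the other accessory genes, and DDIT3, ASNS and SESN2 lie furthest right among the response genes.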

How the data were processed

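The authors deposited unnormalised counts, whole numbers listed by Ensembl identifier, for 6 libraries. Per the labels' protocols, ribosomal RNA was removed and libraries were made with a directional kit. Tools named in the submitters' processing notes are cutadapt 4.6 and STAR 2.7.11b, with build GRCh38. The sources used here name neither the counting program nor its strand setting. Every gene listed has at least 2 counts in all, as read from the values.

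edgeR 4.0.16 (R 4.3.3) was fitted once over the 15816 genes kept by filterByExpr, with TMM scaling, all 6 libraries and no covariate, and members were read from that fit. Standard errors came from the F statistic. The scripts were tested on simulated data. Alternatives were RLE, upper-quartile and no scaling, scaling without NAA10, offsets that remove loess trends in GC content and length, DESeq2 1.42.0, limma-voom (limma 3.58.1), other filters, the replicate number as a block and leaving out each library. Values in every library are given for the 8 cytosolic and 4 mitochondrial members with the smallest p, the 3 with the smallest fold change, HARS1, HARS2, KARS1 and GARS1, and for further members and list genes chosen after their values were seen. Members, lists and tests were chosen with earlier results of these data known. At this depth 3 counts are 0.112 to 0.142 CPM, and precision given by counts covers counting error only. Promoter sequences are from RefSeq.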

Additional observations from a re-analysis of the deposited data

How the results depend on the processing

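Of 901 values of 53 named genes under the alternatives, 765 kept their direction and side of the threshold, 79 no longer passed, 18 newly passed and 39 turned sign. Requiring a change of 1 or more on the log2 scale left 3406 genes called (1536 higher, 1870 lower), of them 2 cytosolic (1 higher, 1 lower) and 3 mitochondrial enzymes (0 higher, 3 lower). With library totals the cytosolic counts were 13 higher and 2 lower with a median of 0.36, and the mitochondrial ones 8 in all, 4 higher and 4 lower, with a median of -0.11. GC and length offsets, with or without the block, gave 5 cytosolic rises, a cytosolic median of -0.01 and a gap between compartments of 0.32. DESeq2 called 1 mitochondrial rise. Leaving out 1 library gave 8 to 14 changed cytosolic enzymes (3 to 8 higher, 5 to 6 lower), 8 to 13 mitochondrial ones (1 to 2 higher, 7 to 11 lower), medians of 0.04 to 0.10 and -0.39 to -0.33, and a gap of 0.41 to 0.47. Pairs with the cytosolic enzyme relatively higher numbered 12 to 14 under all alternatives. The cause of these changes was not tested.

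Direction turned with library totals for GARS1 (0.07), HARS2 (0.01), NARS2 (0.04), TARS2 (0.20) and TRIB3 (0.06). With GC and length offsets it turned for EPRS1 (-0.01), FARSB (-0.18), KARS1 (-0.03), LARS1 (-0.19), TARS2 (0.10), AIMP1 (-0.07), XPOT (-0.03) and TRIB3 (0.15), and with the block added for EPRS1 (-0.01), FARSB (-0.18), KARS1 (-0.03), LARS1 (-0.19), TARS2 (0.11), AIMP1 (-0.07), XPOT (-0.03) and TRIB3 (0.15). RLE scaling and DESeq2 turned FARSB (-0.01) and KARS1 (-0.00), and no filter turned FARSB (-0.01). Leaving out 1 library turned FARSB (lowest -0.06, highest 0.08), KARS1 (-0.04 to 0.05), LARS1 (-0.03 to 0.03), CARS2 (-0.09 to 0.07), TARS2 (-0.15 to 0.01) and AIMP2 (-0.06 to 0.08).

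Libraries with the same replicate number showed no shared deviation, which cannot settle whether they were handled in pairs. Deviations from the group means correlated at 0.0168, -0.0356 and 0.0342 between same-numbered libraries, and ARD1 replicate 2 correlated best with control replicate 1 (0.05). With the number as a replicate block, 10293 genes were called, with 13 cytosolic (7 higher, 6 lower) and 13 mitochondrial enzymes (2 higher, 11 lower). Of the members, IARS1 lost its call (0.16). Depth limits VARS2, with at most 10 counts in a library, and SARS2.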

Other observations

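Accessory genes of aminoacylation rose in 6 of 16 cases and 1, GATB, fell, shares near or below those of all genes tested (32.4% higher and 32.2% lower). DTD1, which removes D-amino acids from tRNA, rose from 33.4, 31.3 and 32.7 CPM to 54.6, 52.1 and 49.4 CPM (log2 fold change 0.68, SE 0.0798). TARS3, a second cytosolic threonyl-tRNA synthetase, rose from 4.14, 4.65 and 4.44 CPM to 6.98, 7.0 and 7.41 CPM (0.69, SE 0.138), a larger fold change than that of TARS1. SEPSECS, which makes selenocysteinyl-tRNA, rose by 0.38 (0.06 and not past the threshold with GC and length trends removed). The tRNA exporter XPOT rose by 0.22, a call that ended without ARD1 replicate 1 (0.22) or 3 (0.20), and turned sign with GC and length trends removed (-0.03).

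Synthetases fall into the structural classes I and II by the fold of their catalytic domain. Of cytosolic class I enzymes 5 of 9 rose and 3 fell, and of cytosolic class II enzymes 3 of 9 rose and 3 fell, with medians of 0.16 and 0.02, where 32.4% of all genes were higher and 32.2% lower. Of mitochondrial class I enzymes 6 of 8 fell and 1 rose, and of class II enzymes 5 of 7 fell and 1 rose, with medians of -0.41 and -0.25. EPRS1, which joins a catalytic domain of each class, was left out of these counts.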
